A study of Talinum fruticosum with 36 samples.

Results

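NAC and WRKY proteins are 2 of the large plant families of transcription factors. In the leaf RNA of Talinum triangulare, a herb that can change its mode of photosynthesis under drought, 68 of 132 loci annotated with a NAC or a WRKY name had at least 100 counts over 30 libraries and are described here, among 21869 loci in all. They are 39 of 75 NAC loci and 29 of 57 WRKY loci. Of the other 64 loci, 28 had no count in any library (22 NAC and 6 WRKY) and 36 had fewer than 100 (14 NAC and 22 WRKY). The nearest to the limit were NAC58 (AT3G18400), with 137 counts, on the inside and WRKY50 (AT5G26170), with 96 counts, on the outside. At a limit of 50 counts the number would have been 75, and at 300 counts 57. Loci whose annotation reads only "NAC" followed by a number were outside the rule.

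The NAC domain binds DNA and lets these proteins pair, and members of the family are known in Arabidopsis for organ boundaries, for the thickened walls of xylem vessels and fibres, for leaf ageing and for the response to water deficit and to the hormone abscisic acid. WRKY proteins carry a conserved WRKY sequence next to a zinc finger, bind the W-box in promoters and are best known for defence against pathogens, with members that act in ageing, heat and drought. Crassulacean acid metabolism (CAM) is the form of photosynthesis in which stomata open and CO2 is fixed at night. Roles given below are those of the Arabidopsis genes whose identifiers the loci carry, and they were not measured here.

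Plants were grown with full watering for 28 days and then kept without water for 0, 4, 9 or 12 days, or were droughted and then re-watered for 2 days. Mature leaves were taken 6 h after the lights came on (midday) and 6 h after they went off (midnight), which gave 10 groups of 3 libraries, each library labelled as a biological replicate. The submitters labelled midday leaves of days 9 and 12 as in CAM mode and those of day 0, day 4 and the re-watered plants as in C3 mode, the ordinary form of photosynthesis. No watered plants of the later sampling days were among the groups, so drought, plant age and sampling day cannot be told apart in any comparison with day 0. Nor was there a group kept dry until the re-watered plants were sampled. Re-watering, plant age and sampling day therefore cannot be told apart in the comparisons of re-watered leaves with day 12. These are whole-leaf samples, in which fewer cells of a type and less RNA per cell cannot be told apart.

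Library totals ran from 4266915 to 8756533 counts. On these raw totals 3 counts, the limit that a count of 0 allows, corresponded to 0.343 to 0.703 CPM, the count scaled to a fixed library size. The levels below are on another scale, adjusted for library composition. On it 1 count was 0.0959 CPM in day 12 midnight replicate 3 and 0.209 CPM in day 4 midnight replicate 1. NAC and WRKY loci together took 0.0275% to 0.116% of a library. Levels are given as CPM scaled by library composition (TMM), in the order of replicates 1, 2 and 3, and are compared between samples of a locus, never between loci, because locus lengths were not known. Each difference is a log2 fold change of 3 libraries against 3 from edgeR's quasi-likelihood test, with p adjusted by the Benjamini-Hochberg method over all 14052 loci tested, and a locus is said to have changed where the adjusted p was under 0.05. Of the 68 loci, 67 were tested (WRKY67, AT1G66550, had too few counts), 63 changed in at least 1 of 17 comparisons, and 4 changed in none: AT5G08790, AT5G53950, WRKY48 (AT5G49520) and WRKY57 (AT1G69310). Calls in a single comparison reached 57.6% of all loci tested (day 12 against day 0 at midnight). The share of all loci that changed in at least 1 comparison is not given here. The 63 of 67 are therefore not read as particular to these families. No pair of libraries was identical. The libraries least like their own group were re-watered midday replicate 3 and day 0 midnight replicate 3. Their mean correlations over log2 CPM were 0.9618 and 0.9632, and calls that rest on them are given without them as well. Calls of the NAC and WRKY loci whose values are given below were kept without any 1 library, unless the loss is stated.

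Few of these loci passed the test on day 4. At midday, day 4 and day 0 differed in 0 of 67 loci, as in 0% of all loci tested, of which 1052 had an unadjusted p under 0.05. At midnight, 1 of 67 loci changed, lower on day 4, against a background of 0.185% of all loci (0.0498% higher and 0.135% lower). It was NAC82 (AT5G09330), in Arabidopsis a mediator of the response to ribosome stress, with 14.4, 17.3 and 20.99 CPM on day 4 and 31.4, 30.6 and 25.7 CPM on day 0 (log2 fold change -0.73 ± 0.15 (SE), edgeR adjusted p = 0.0464). The 2 groups did not overlap. The call was lost without any library of these groups other than day 0 midnight replicate 3, with edgeR adjusted p = 0.0661 to 0.216, and without many libraries of the other groups. Without day 0 midnight replicate 3 the number of changed loci was 5, without that library and re-watered midday replicate 3 it was 10, all lower on day 4, and in a fit of these groups alone it was 0. The median log2 difference over the 39 NAC loci at midnight on day 4 was -0.41, beside -0.00396 over all loci tested, and 9 of the 39 had an unadjusted p under 0.05, as had 2019 of all 14052 loci.

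By days 9 and 12 between 21 and 33 of the 67 loci differed from day 0. At midday on day 9, 16 loci were higher and 5 lower than on day 0, which is 21 loci or 31.3%, against 44.5% of all loci tested (23.4% higher and 21% lower). At midday on day 12, 20 were higher and 13 lower, 33 loci or 49.3%, against 55% of all loci (29.3% higher and 25.7% lower). This split depended on the scaling, being 16 higher and 16 lower with upper-quartile scaling and 17 and 16 with relative log expression scaling. At midnight the counts were 15 higher and 8 lower on day 9, against 48.6% of all loci (23.2% higher and 25.4% lower), and 21 higher and 11 lower on day 12, against 57.6% (27.8% higher and 29.8% lower). The median log2 difference over the 39 NAC loci was 0.47 at midday on day 9 and 0.63 on day 12, beside 0.05 and 0.08 over all loci tested. At midnight the NAC median was 0.08 on day 9 and 0.19 on day 12, beside 0.01 and 0.00534 over all loci. At midday after re-watering it was 0.55 relative to day 0, beside 0.02 over all loci, close to its values in drought. The summed NAC level of that group was 341, 401 and 594 CPM, highest in replicate 3, the library least like its group. The median is not given here without that library. Over the 28 WRKY loci tested the median was -0.09 and -0.16 at midday on days 9 and 12 and 0.12 and 0.23 at midnight.

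**Figure D1:**
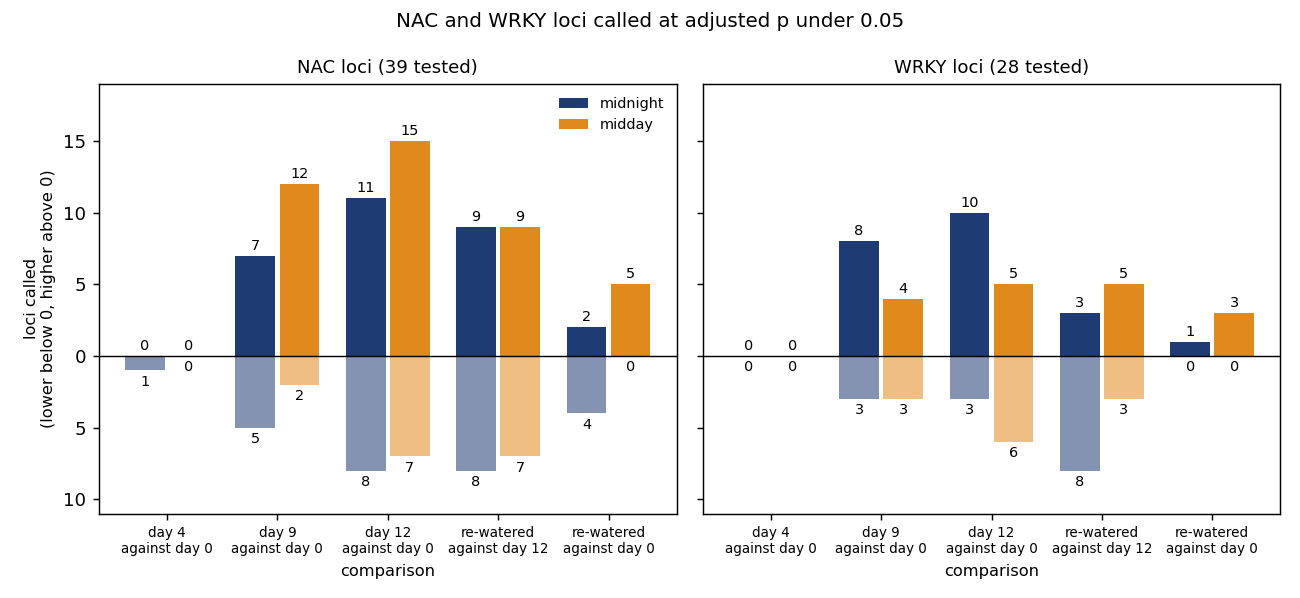
Number of NAC and WRKY loci with an adjusted p under 0.05 in each comparison, higher loci above the zero line and lower loci below it. Few loci passed in the day 4 comparisons, and 15 to 21 loci were higher in each comparison of day 9 or day 12 with day 0.

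On day 9 no NAC locus was called higher at both times. Of 12 NAC loci higher at midday on day 9, none was also higher at midnight, 11 did not pass the test there and 1 was lower. Of 7 NAC loci higher at midnight, none passed at midday. Over all loci tested, 45.3% of those higher at midday were also higher at midnight, which is 45.8% of those higher at midnight. Of all loci higher at midday, 47% did not pass at midnight and 7.69% were lower there, beside 91.7% and 8.33% of the NAC loci. Of all loci higher at midnight, 4.88% were lower at midday. On day 12, 6 NAC loci were higher at both times, 8 at midday only, 3 were lower at midday and higher at midnight, and 1 was higher at midday and lower at midnight. These 6 were 40% of the NAC loci higher at midday and 54.5% of those higher at midnight, beside 50.1% and 52.9% over all loci. The 8 were 53.3% of the NAC loci higher at midday, beside 37.9% over all loci. The 3 were 42.9% of the 7 NAC loci lower at midday, beside 7.19%. The 1 was 6.67% of the NAC loci higher at midday, beside 11.9%. Among WRKY loci 3 were higher at both times on day 9, of 4 higher at midday and 8 at midnight, and 4 on day 12, of 5 and 10. Since a call at one time and none at the other does not show that responses differ, the difference of the responses was tested itself. On day 9 it passed in 10 of 67 loci, 4 with a higher and 6 with a lower response at midnight, against 24.3% of all loci (10% higher and 14.2% lower). On day 12 it passed in 19, 9 higher and 10 lower, against 33.8% (15.2% higher and 18.6% lower). With upper-quartile scaling these splits were 5 and 3, and 11 and 8. Without day 0 midday replicate 3 the count for day 9 was 6, as it was in a fit of the groups compared alone.

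**Figure D2:**
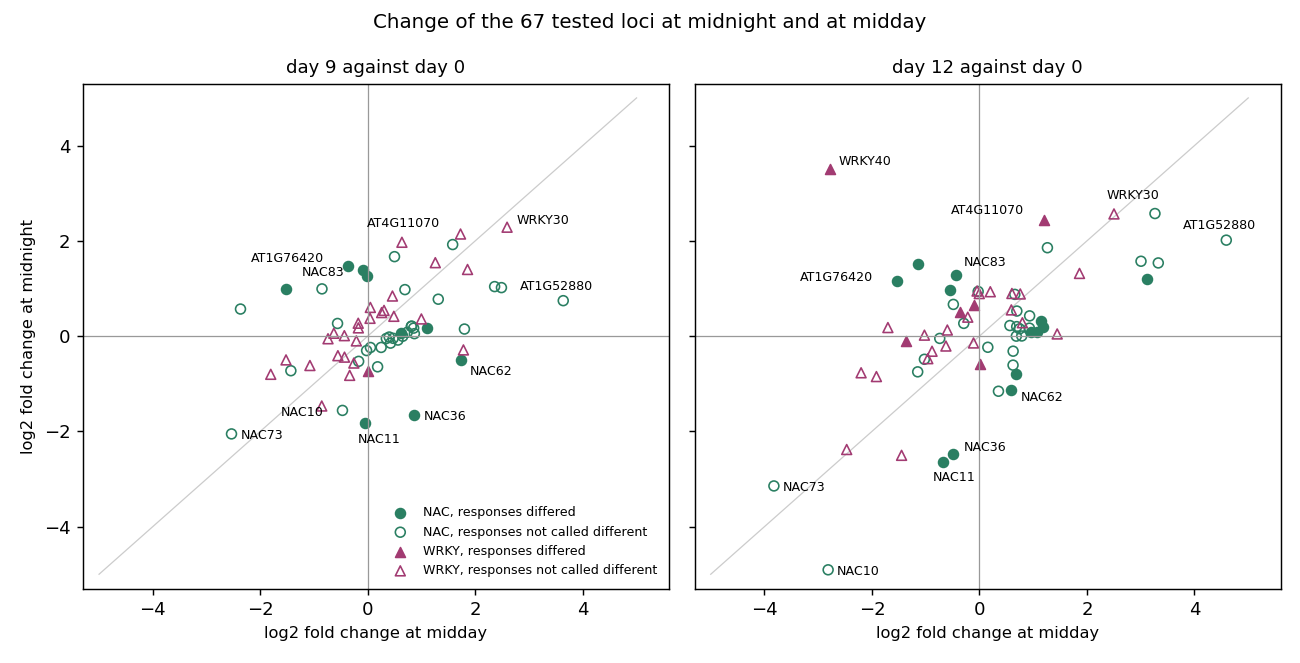
Change against day 0 at midnight (vertical axis, log2) over the change at midday (horizontal axis, log2) for the 67 loci tested, in a panel each for day 9 and day 12. Points are loci coloured by family, and those whose response differed between midnight and midday at an adjusted p under 0.05 are filled. WRKY40 on day 12 lies far above the diagonal, at 3.51 at midnight and -2.79 at midday, and NAC36 and NAC62 lie below it on both days. The WRKY40 midday value rests on 1, 2 and 4 counts on day 12 and lost its call without day 0 midday replicate 2.

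The locus with the most counts of both families, NAC83 (AT5G13180), in Arabidopsis a repressor of vessel formation that also acts in leaf ageing, rose under drought at midnight. It had 182, 186 and 182 CPM at midnight on day 9 and 208, 134 and 173 CPM on day 12, against 89.5, 68.5 and 53.5 CPM on day 0. All 6 droughted libraries lay above all 3 of day 0 (day 9: log2 fold change 1.38 ± 0.16 (SE), edgeR adjusted p = 1.30e-07; day 12: log2 fold change 1.28 ± 0.16 (SE), edgeR adjusted p = 2.26e-07). At midday it had 29.97, 31.1 and 26.9 CPM on day 9 and 32.6, 32.3 and 28.3 CPM on day 0, and these libraries overlapped. Day 12 at midday had 20.5, 22.9 and 25.7 CPM, all below day 0, and the call was lost without day 0 midday replicates 1 or 2 or day 12 midday replicates 1 or 2 (-0.35 to -0.42 on the log2 scale, edgeR adjusted p = 0.0833 to 0.1399) (with all libraries log2 fold change -0.43 ± 0.18 (SE), edgeR adjusted p = 0.0397). Its midnight excess over midday was thus 2.64 ± 0.17 on the log2 scale (SE) on day 9 and 2.89 ± 0.18 on day 12, beside 1.18 ± 0.17 on day 0. The difference of the responses was 1.46 ± 0.24 (SE), edgeR adjusted p = 7.20e-05 on day 9 and 1.71 ± 0.24 (SE), edgeR adjusted p = 3.88e-06 on day 12.

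NAC41 (AT2G33480) had the same shape at lower counts. Its levels were 39.7, 38.7 and 39.3 CPM at midnight on day 9, close together, and 21.3, 14.1 and 13.8 CPM on day 0 (log2 fold change 1.25 ± 0.18 (SE), edgeR adjusted p = 1.62e-06), with no overlap. At midday they were 7.06, 7.25 and 7.05 CPM on day 9, within the 8.43, 5.66 and 7.503 CPM of day 0. NAC20 (AT1G54330), which acts in the phloem of Arabidopsis roots, rose at midnight to 32.3, 28.3 and 32.4 CPM on day 9, against 19.1, 16.5 and 11.8 CPM on day 0 (log2 fold change 0.98 ± 0.23 (SE), edgeR adjusted p = 0.001101). The locus AT1G76420, annotated by family only, had 8.36, 7.64 and 7.47 CPM at midnight on day 9 and 3.34, 2.99 and 2.08 CPM on day 0 (log2 fold change 1.48 ± 0.32 (SE), edgeR adjusted p = 4.41e-04). All 3 day 9 libraries were more than 2 times as high as any of day 0. NAC25 (AT1G61110), known from the endosperm of germinating Arabidopsis seeds, had 4.66, 6.301 and 6.66 CPM at midnight on day 9 and 2.34, 2.42 and 0.807 CPM on day 0 (log2 fold change 1.67 ± 0.38 (SE), edgeR adjusted p = 6.34e-04), also without overlap.

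NAC36 (AT2G17040), which limits leaf cell growth when overexpressed in Arabidopsis, went the other way at night. At midnight it had 3.46, 3.49 and 2.64 CPM on day 9 and 0.777, 3.01 and 1.53 CPM on day 12, against 12.3, 9.54 and 8.19 CPM on day 0. The 6 droughted libraries were all below those of day 0 (day 9: log2 fold change -1.65 ± 0.44 (SE), edgeR adjusted p = 0.00335; day 12: log2 fold change -2.48 ± 0.47 (SE), edgeR adjusted p = 9.53e-05). At midday on day 9 it had 67.7, 59.7 and 36.5 CPM, against a wide 13.8, 35.4 and 40.8 CPM on day 0, and these libraries overlapped. That higher midday level (log2 fold change 0.87 ± 0.34 (SE), edgeR adjusted p = 0.0432) lost its call without day 0 midday replicate 1, day 0 midnight replicate 1, day 9 midday replicates 1 or 2 or day 9 midnight replicate 2 (0.52 to 0.80 on the log2 scale, edgeR adjusted p = 0.0649 to 0.222). On day 9 NAC36 was lower at midnight than at midday by 4.09 ± 0.42 on the log2 scale (SE), beside 1.58 ± 0.37 on day 0. The response at midnight minus that at midday was -2.51 ± 0.56 (SE), edgeR adjusted p = 0.00187.

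NAC62 (AT3G49530) is made in Arabidopsis as a membrane-bound protein that is released under stress. At midday on day 9 it had 9.82, 9.395 and 4.33 CPM, against 2.86, 1.78 and 2.44 CPM on day 0, with no overlap although replicate 3 of day 9 was much the lowest (log2 fold change 1.73 ± 0.30 (SE), edgeR adjusted p = 4.28e-05). At midnight its level was 1.68, 1.81 and 1.82 CPM on day 12 and 4.34, 2.99 and 4.27 CPM on day 0 (log2 fold change -1.13 ± 0.31 (SE), edgeR adjusted p = 0.00309). Its day 12 response at midnight minus midday was -1.72 ± 0.45 (SE), edgeR adjusted p = 0.00431. NAC11 (AT1G32510) had 1.43, 2.68 and 2.41 CPM at midnight on day 9 and 1.42, 1.57 and 0.767 CPM on day 12, against 8.91, 7.83 and 6.34 CPM on day 0. It was lower in all 6 droughted libraries (day 12: log2 fold change -2.64 ± 0.43 (SE), edgeR adjusted p = 9.54e-06). At midday its libraries of day 9, 1.03, 3.36 and 1.76 CPM, overlapped those of day 0, 1.27, 2.91 and 2.44 CPM.

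**Figure D3:**
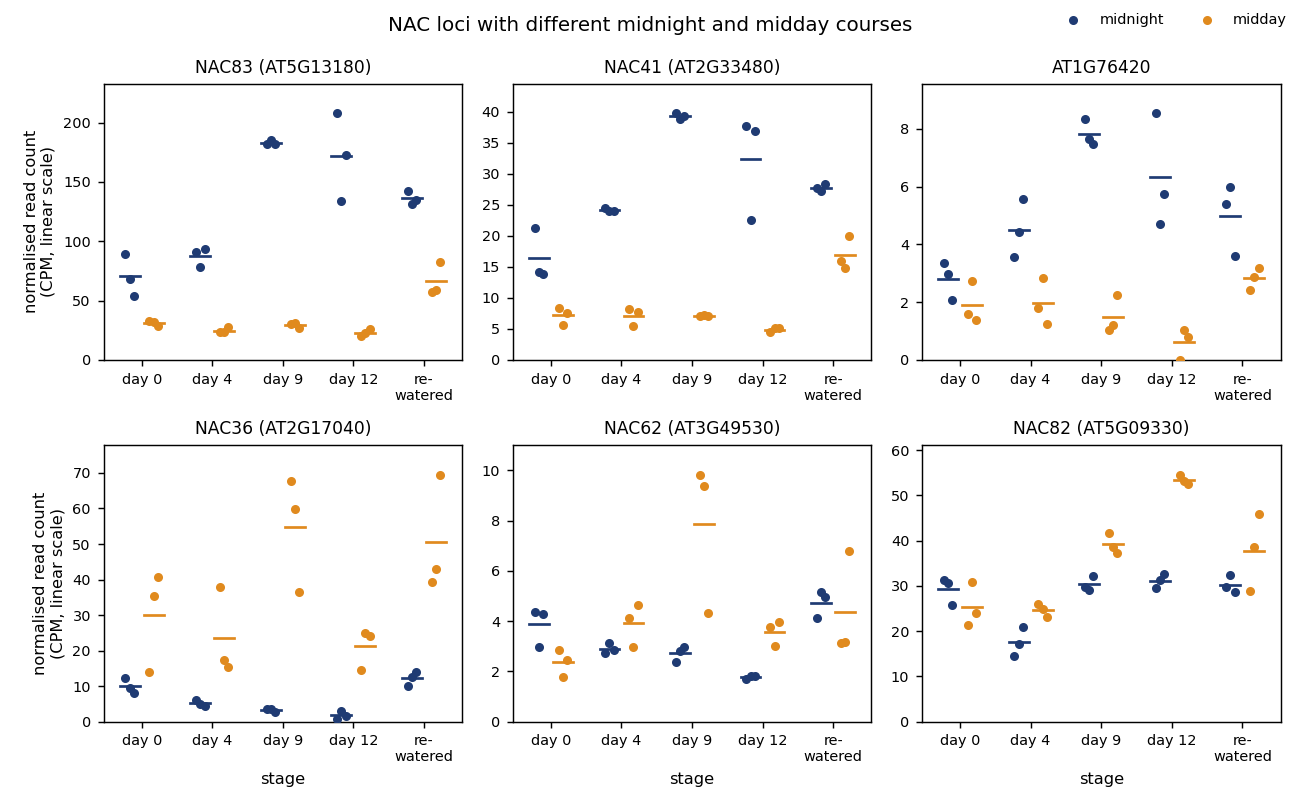
CPM (vertical axis, linear, from 0) of NAC83, NAC41, AT1G76420, NAC36, NAC62 and NAC82 over the stages of drought and re-watering (horizontal axis), midnight in dark blue left of midday in orange. Points are libraries and bars group means of 3. NAC83, NAC41 and AT1G76420 show their highest points at midnight on days 9 and 12, while NAC36 has its lowest there.

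A further set of NAC loci rose at midday. NAC82 had 54.5, 53.2 and 52.4 CPM at midday on day 12, against 21.3, 30.9 and 24.1 CPM on day 0 (log2 fold change 1.07 ± 0.15 (SE), edgeR adjusted p = 9.92e-07). The midnight levels of day 12, 29.6, 31.3 and 32.6 CPM, overlapped the 31.4, 30.6 and 25.7 CPM of day 0, and the response at midnight minus that at midday was -0.97 ± 0.21 (SE), edgeR adjusted p = 6.63e-04. NAC16 (AT1G34180), which promotes leaf ageing in Arabidopsis, had 11.7, 10.5 and 11.7 CPM at midday on day 9 and 4.14, 6.79 and 4.89 CPM on day 0 (log2 fold change 1.09 ± 0.24 (SE), edgeR adjusted p = 5.46e-04). NAC13 (AT1G32870), which relays signals of disturbed mitochondria to the nucleus in Arabidopsis, had 25.6, 29.98 and 30.7 CPM on day 12 and 12.7, 19.7 and 11.7 CPM on day 0 (log2 fold change 0.96 ± 0.21 (SE), edgeR adjusted p = 2.92e-04). NAC50 (AT3G10480) and NAC52 (AT3G10490) work in Arabidopsis with a histone demethylase that removes methyl groups from histone H3. NAC52 had 22.4, 22.9 and 20.7 CPM at midday on day 12 and 9.23, 8.25 and 12.2 CPM on day 0 (log2 fold change 1.15 ± 0.20 (SE), edgeR adjusted p = 1.65e-05), and NAC50 rose by 0.75 ± 0.19 on the log2 scale (SE; edgeR adjusted p = 0.001897). In all 5 loci every day 12 library at midday lay above every day 0 library.

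A group of NAC loci with low counts at midday on day 0 rose at midday in droughted leaves. AT4G27410, annotated by family only, had 11.5, 7.25 and 7.53 CPM at midday on day 9 and 14.1, 12.96 and 10.5 CPM on day 12, against 0.795, 2.103 and 1.74 CPM on day 0. No droughted library overlapped day 0 (day 9: log2 fold change 2.49 ± 0.62 (SE), edgeR adjusted p = 0.00216; day 12: log2 fold change 3.005 ± 0.60 (SE), edgeR adjusted p = 1.75e-04). NAC3 (AT3G15500), an Arabidopsis regulator in drought, abscisic acid and jasmonate responses, had 12.04, 7.08 and 8.103 CPM at midday on day 12 and 0.318, 0.9705 and 1.396 CPM on day 0 (log2 fold change 3.33 ± 0.67 (SE), edgeR adjusted p = 1.72e-04). A second locus with the name NAC3, AT3G29035, which promotes leaf ageing in Arabidopsis, had 17.1, 20.8 and 10.8 CPM on day 12 and 1.11, 3.397 and 1.05 CPM on day 0 (log2 fold change 3.11 ± 0.56 (SE), edgeR adjusted p = 5.19e-05). In both, every day 12 library was above every day 0 library. The locus AT1G52880, annotated by family only, had 4.89, 7.38 and 4.77 CPM at midday on day 12 and 0.159, 0.323 and 0.174 CPM on day 0 (edgeR adjusted p = 7.37e-05). Those day 0 values are 4 counts in all, and no fold is given for a group with so few.

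At midnight these loci were already variable before drought. On day 0 at midnight AT4G27410 had 12.4, 11.4 and 1.499 CPM, NAC3 (AT3G15500) 10.4, 7.26 and 1.15 CPM, NAC3 (AT3G29035) 12.6, 9.82 and 2.31 CPM and AT1G52880 4.01, 2.85 and 0 CPM. In each the third library, the midnight library least like its group, was far below the other two. On day 12 at midnight they had 12.3, 28.8 and 33.2 CPM, 11.5, 18.1 and 24.6 CPM, 16.8, 17.8 and 21.97 CPM and 11.5, 7.35 and 8.92 CPM in the same order of loci. The change at midnight was 1.57 ± 0.44 (SE), edgeR adjusted p = 0.00385 for AT4G27410 and 1.54 ± 0.45 (SE), edgeR adjusted p = 0.00551 for AT3G15500. Without day 0 midnight replicate 3 these became 1.06 (edgeR adjusted p = 0.0142) and 1.03 (edgeR adjusted p = 0.0252). The change of AT1G52880 was 2.01 ± 0.52 (SE), edgeR adjusted p = 0.00181, and 1.41 without that library (edgeR adjusted p = 0.00394). The change of AT3G29035 was 1.201 ± 0.44 (SE), edgeR adjusted p = 0.0222, and its call was lost without day 0 midnight replicate 3 or day 12 midnight replicate 3 (0.75 to 1.07 on the log2 scale, edgeR adjusted p = 0.0704 to 0.114). On day 9 at midnight none of the 4 passed the test.

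NAC factors of the vessels, fibres and secondary walls moved in both directions. Of 6 such loci, NAC83 included, 3 were lower and 1 higher at midday on day 12, against 25.7% and 29.3% of all loci, and 2 were lower and 3 higher at midnight, against 29.8% and 27.8%. NAC73 (AT4G28500), an activator of secondary wall genes in Arabidopsis fibres, fell at both times. It had 0.564, 0 and 0.159 CPM at midday on day 12 and 3.02, 3.07 and 4.01 CPM on day 0 (edgeR adjusted p = 1.59e-05), and with 4 counts in all on day 12 no fold is given. At midnight it had 0, 0.723 and 0.4797 CPM on day 12 and 4.01, 2.56 and 4.73 CPM on day 0 (log2 fold change -3.15 ± 0.50 (SE), edgeR adjusted p = 7.11e-06). NAC10 (AT1G28470), from the same fibre pathway in Arabidopsis, had 0, 0.1205 and 0.0959 CPM at midnight on day 12, which is 0 to 1 count a library, and 3.34, 2.42 and 2.54 CPM on day 0 (edgeR adjusted p = 2.35e-07). None of these droughted libraries reached the lowest of day 0.

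NAC12 (AT1G32770), which switches on wall thickening in Arabidopsis fibres, and NAC105 (AT5G66300), which acts in vessels, were instead higher at night. NAC12 had 6.08, 4.22 and 2.21 CPM at midnight on day 12 and 1.45, 1.28 and 1.499 CPM on day 0, without overlap (log2 fold change 1.52 ± 0.35 (SE), edgeR adjusted p = 6.19e-04). At midday on day 12 it had 0.188, 0.151 and 0.159 CPM, a single count in each library, so no fold between midnight and midday is given (edgeR adjusted p = 9.67e-08). NAC105 had 1.79, 3.62 and 2.18 CPM at midnight on day 9 and 2.46, 4.698 and 4.605 CPM on day 12, against 0.668, 0.712 and 0.577 CPM on day 0. The lowest droughted library was above 2 times the highest of day 0 (day 12: log2 fold change 2.57 ± 0.46 (SE), edgeR adjusted p = 3.12e-05). At midday its day 0 libraries held 0 or 1 count each and no fold is given. The xylem NAC domain protein 1 (AT5G64530) had 1.19, 2.55 and 1.61 CPM at midnight on day 9 and 0.557, 0.569 and 1.499 CPM on day 0, which overlapped.

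Genes of the wall itself were counted as a list, each by its own test, and the list as a whole was not tested. Of 15 secondary wall genes 11 were tested, and 7, 7, 8 and 8 were lower on day 9 and day 12 at midday and on day 9 and day 12 at midnight, while 0, 1, 0 and 0 were higher. Over all loci tested, 21%, 25.7%, 25.4% and 29.8% were lower and 23.4%, 29.3%, 23.2% and 27.8% higher in this order. The median log2 difference of the wall genes at midnight on day 12 was -1.99, beside 0.01 over all loci tested. Laccase 17 (AT5G60020), which polymerises lignin, changed by -6.201 ± 0.51 (SE), edgeR adjusted p = 1.88e-10 there, and cellulose synthase A4 (AT5G44030), which makes the cellulose of secondary walls, by -2.08 ± 0.14 (SE), edgeR adjusted p = 3.09e-12. The 5 xylem and fibre marker genes, which the wall list also holds, summed to 191 to 242 CPM at midnight on day 12 and 460 to 588 CPM on day 0, with 4 of 5 lower and 0 higher. At midday the sums were 373 to 558 CPM on day 12 and 562 to 643 CPM on day 0, with 3 lower and 1 higher. These markers moved together with NAC73 and NAC10, and their part in that result was not tested.

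**Figure D4:**
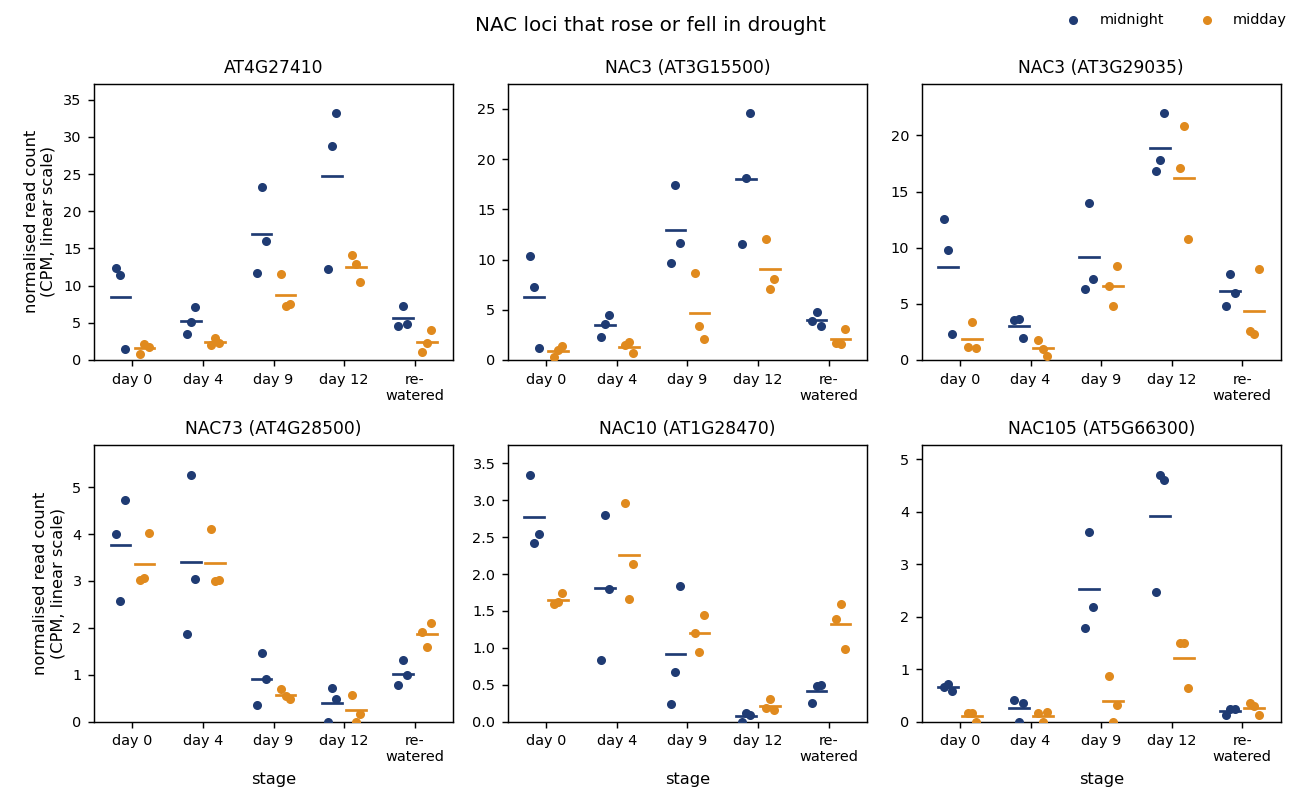
CPM (vertical axis, linear, from 0) of AT4G27410, the NAC3 loci AT3G15500 and AT3G29035, NAC73, NAC10 and NAC105 over the stages (horizontal axis), midnight in dark blue left of midday in orange. Points are libraries and bars group means of 3. The first 3 panels show the low library of day 0 at midnight, and NAC73 and NAC10 lie near 0 on day 12.

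Other NAC loci fell, though AT1G01720 did so only at midnight and was higher at midday. AT1G25580, annotated by family only, had 6.37, 8.86 and 5.13 CPM at midday on day 9 and 15.4, 20.5 and 19.5 CPM on day 0 (log2 fold change -1.43 ± 0.20 (SE), edgeR adjusted p = 2.03e-06). At midnight it had 11.5, 10.7 and 11.03 CPM and 20.7, 20.9 and 13.5 CPM (log2 fold change -0.73 ± 0.19 (SE), edgeR adjusted p = 0.00204), and no droughted library overlapped day 0 at either time. NAC35 (AT2G02450), which acts in cold and flowering in Arabidopsis, had 4.14, 5.12 and 7.15 CPM at midday on day 12 and 8.11, 11.3 and 14.3 CPM on day 0 (log2 fold change -1.02 ± 0.28 (SE), edgeR adjusted p = 0.00309). AT1G01720, annotated by family only and second by counts among the NAC loci, had 101, 104 and 76.7 CPM at midday on day 12 and 45.97, 71.3 and 57.4 CPM on day 0, and 30.6, 59.7 and 49.7 CPM at midnight on day 12 and 108, 86.3 and 50.4 CPM on day 0. Its day 12 response at midnight minus midday was -1.49 ± 0.40 (SE), edgeR adjusted p = 0.005398. The change at midday alone, 0.69, lost its call without day 0 midday replicates 1 or 3, day 0 midnight replicate 1, day 12 midday replicates 1 or 2 or day 9 midnight replicate 2 (0.54 to 0.68 on the log2 scale, edgeR adjusted p = 0.0693 to 0.164), and that at midnight, -0.80, without day 0 midnight replicate 1 or day 12 midnight replicate 1 (-0.57 to -0.62 on the log2 scale, edgeR adjusted p = 0.0904 to 0.111).

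Of the WRKY loci, 3 were higher on day 9 at both times. WRKY30 (AT5G24110), linked in Arabidopsis to oxidative stress, had 5.61, 8.04 and 5.63 CPM at midnight on day 9 and 8.67, 7.71 and 7.003 CPM on day 12, against 1.23, 1.42 and 1.27 CPM on day 0 (day 12: log2 fold change 2.56 ± 0.43 (SE), edgeR adjusted p = 1.50e-05). At midday it had 3.62, 3.62 and 1.92 CPM on day 9 and 2.26, 4.07 and 2.22 CPM on day 12, against 0.159, 1.13 and 0.174 CPM on day 0 (day 12: log2 fold change 2.502 ± 0.62 (SE), edgeR adjusted p = 0.00133). No droughted library of either time overlapped day 0. AT4G11070, annotated by family only, had 18.02, 24.3 and 17.5 CPM at midnight on day 9 and 21.8, 30.96 and 20.8 CPM on day 12, against 4.23, 4.13 and 5.07 CPM on day 0 (day 12: log2 fold change 2.44 ± 0.23 (SE), edgeR adjusted p = 1.43e-09). At midday it had 16.9, 11.5 and 14.4 CPM on day 9 and 3.18, 5.34 and 4.36 CPM on day 0 (log2 fold change 1.73 ± 0.25 (SE), edgeR adjusted p = 3.20e-06), again without overlap. Its response on day 12 was larger at midnight by 1.23 ± 0.35 (SE), edgeR adjusted p = 0.00743. WRKY69 (AT3G58710), at lower counts, had 1.72, 2.28 and 2.08 CPM at midday on day 9 and 0.318, 0.323 and 1.05 CPM on day 0 (log2 fold change 1.86 ± 0.54 (SE), edgeR adjusted p = 0.00646).

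WRKY40 (AT1G80840), in Arabidopsis a repressor in defence and abscisic acid signalling, was higher at midnight on day 12. Its midday change lay the other way, on few counts. At midnight it had 5.44, 5.54 and 6.24 CPM on day 12 and 0.557, 0.854 and 0.115 CPM on day 0, with all droughted libraries far above (log2 fold change 3.51 ± 0.61 (SE), edgeR adjusted p = 2.17e-05). At midday it had 0.188, 0.301 and 0.636 CPM on day 12, against a wide 0.477, 5.34 and 2.44 CPM on day 0, and these overlapped. That midday change (log2 fold change -2.79 ± 0.76 (SE), edgeR adjusted p = 0.00296) lost its call without day 0 midday replicate 2 (-1.85 on the log2 scale, edgeR adjusted p = 0.06299). The response on day 12 at midnight minus that at midday was 6.29 ± 0.97 (SE), edgeR adjusted p = 1.49e-05, and it kept its call without any 1 library. Its size rests on few counts, 1, 2 and 4 at midday on day 12 and 5, 6 and 1 at midnight on day 0. At midday on day 9 WRKY40 had 6.55, 4.43 and 1.92 CPM, overlapping day 0, and the change did not pass.

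Among the WRKY loci of group II, 5 of 13 were lower and 1 higher at midday on day 12, and 0 lower and 3 higher at midnight. Over all loci 25.7% were lower and 29.3% higher at midday, and 29.8% lower and 27.8% higher at midnight. WRKY17 (AT2G24570), which holds back basal defence in Arabidopsis together with WRKY11, had 9.03, 9.64 and 15.3 CPM at midday on day 12, all below the 18.9, 39.5 and 29.3 CPM of day 0 (log2 fold change -1.36 ± 0.29 (SE), edgeR adjusted p = 3.46e-04). At midnight it had 39.5, 26.3 and 26 CPM on day 12 and 33.4, 37.4 and 27.4 CPM on day 0, which overlapped. WRKY39 (AT3G04670), which acts in heat responses, had 5.08, 4.22 and 4.29 CPM at midday on day 12 and 6.52, 11.97 and 6.46 CPM on day 0, without overlap (log2 fold change -0.88 ± 0.24 (SE), edgeR adjusted p = 0.00256), and lost its call without day 0 midday replicate 2 (-0.52 on the log2 scale, edgeR adjusted p = 0.0613). WRKY13 (AT4G39410), which promotes lignin in Arabidopsis stems, had 0.376, 0.301 and 0.636 CPM on day 12 and 1.91, 2.91 and 1.396 CPM on day 0 (log2 fold change -2.203 ± 0.53 (SE), edgeR adjusted p = 0.00103). No day 12 library reached the lowest of day 0.

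Of 7 WRKY loci whose annotated number places them in group I, which carry 2 WRKY domains, 4 were higher at midnight on day 12, against 27.8% of all loci. At midday on day 12, 2 were higher, against 29.3%, and none of the 7 was lower on day 12 at either time. At midnight on day 9, 2 were higher and 1 lower, against 23.2% and 25.4%. The 7 WRKY loci annotated by family only were put in no group. Of them 2 were higher and 3 lower at midnight on day 12, against 27.8% and 29.8% of all loci. WRKY4 (AT1G13960), which acts against necrotrophic pathogens in Arabidopsis, had 46.3, 41.7 and 54.97 CPM at midnight on day 12 and 32.4, 20.4 and 23.99 CPM on day 0 (log2 fold change 0.89 ± 0.15 (SE), edgeR adjusted p = 1.90e-05). All 3 libraries of day 12 were above those of day 0. WRKY33 (AT2G38470), a regulator of the antimicrobial compound camalexin in Arabidopsis, rose at midnight on day 12 by 0.95 ± 0.31 (SE), edgeR adjusted p = 0.0116, and lost its call without day 0 midnight replicate 3 or day 12 midnight replicate 2 (0.77 to 0.79 on the log2 scale, edgeR adjusted p = 0.0538 to 0.06203). AT4G26640, annotated by family only and the WRKY locus with the most counts, had 37.4, 44.5 and 37.6 CPM at midnight on day 9, all below the 82.9, 64.2 and 51.8 CPM of day 0 (log2 fold change -0.74 ± 0.16 (SE), edgeR adjusted p = 3.91e-04). It was lower also at midnight on day 12 (log2 fold change -0.58 ± 0.16 (SE), edgeR adjusted p = 0.00277). At midday it had 39.8, 37.4 and 34.5 CPM on day 9 and 31.3, 44.6 and 35.4 CPM on day 0, which overlapped.

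**Figure D5:**
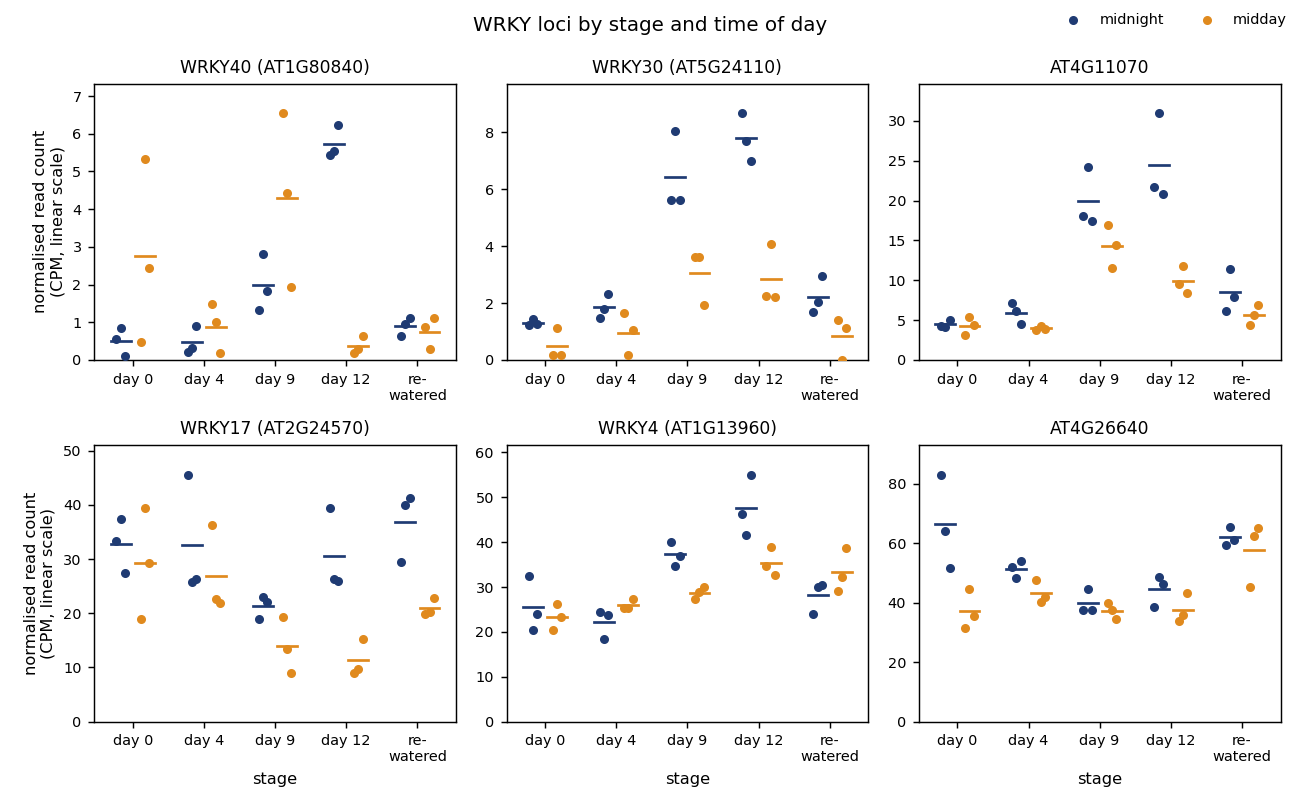
CPM (vertical axis, linear, from 0) of WRKY40, WRKY30, AT4G11070, WRKY17, WRKY4 and AT4G26640 over the stages (horizontal axis), midnight in dark blue left of midday in orange. Points are libraries and bars group means of 3. WRKY40 shows its highest midnight points on day 12, at 5.44 to 6.24 CPM, and WRKY30 and AT4G11070 are higher on days 9 and 12 at both times.

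Both families were more often higher than lower at midnight compared with midday at every stage. On day 0, 24 loci were higher and 3 lower at midnight, against 43.9% of all loci (22.9% higher and 21% lower). The counts were 16 and 3 on day 4, against 41.9% (22.4% and 19.5%), 22 and 6 on day 9, against 49.5% (24% and 25.6%), and 29 and 8 on day 12, against 54.7% (27.2% and 27.5%). After re-watering they were 17 and 3, against 47.1% (23.6% and 23.5%). The families differed on day 12. Of 25 numbered NAC loci outside the vessel, fibre and wall group, 6 were higher and 6 lower at midnight. In that group of 6 the counts were 4 and 0, and among 8 NAC loci annotated by family only 1 and 1. Of 13 WRKY loci of group II, 9 were higher and 0 lower, and of 7 of group I, 4 and 1. Without day 4 midday replicate 3 the count of called loci for day 4 was 10 in place of 19, and without re-watered midday replicate 2 that for re-watered plants was 11 in place of 20. The summed NAC level was 581 ± 34.3 CPM at midnight and 382 ± 57.7 CPM at midday on day 9 (SD, n = 3 each), and 442 ± 127 and 291 ± 57.1 CPM on day 0. Without NAC83 the NAC sums were 398 ± 32.2 CPM at midnight and 353 ± 56 CPM at midday on day 9, and 372 ± 109 and 260.4 ± 57.7 CPM on day 0. On day 12 they were 411 ± 44.9 CPM at midnight and 399 ± 29.3 CPM at midday. The summed WRKY level was 323 ± 8.17 CPM at midnight and 178 ± 11.8 CPM at midday on day 12, and 263 ± 44.6 and 192 ± 47.4 CPM on day 0.

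WRKY21 (AT2G30590) was higher at midnight at all 5 stages. Its libraries had 34.4, 34.02 and 26.5 CPM at midnight and 18.3, 22.97 and 13.3 CPM at midday on day 0 (log2 fold change 0.80 ± 0.19 (SE), edgeR adjusted p = 0.00145). On day 12 they had 36.2, 48.4 and 40.3 CPM at midnight and 12.4, 16.7 and 17.6 CPM at midday (log2 fold change 1.41 ± 0.19 (SE), edgeR adjusted p = 5.82e-07). The times did not overlap on either day. WRKY23 (AT2G47260), which acts in auxin responses of Arabidopsis roots, had 6.35, 7.97 and 2.19 CPM at midnight and 0.159, 0.809 and 0.523 CPM at midday on day 0 (log2 fold change 3.41 ± 0.60 (SE), edgeR adjusted p = 4.61e-05). NAC35 was among the few loci that were higher by day. On day 9 it had 6.09, 4.16 and 4.596 CPM at midnight and 15.5, 15.3 and 9.14 CPM at midday (log2 fold change -1.42 ± 0.27 (SE), edgeR adjusted p = 8.20e-05).

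After 2 days of re-watering 8 loci differed from day 0 at midday and 7 at midnight. Against day 12, 14 loci were higher and 10 lower at midday, beside 47.7% of all loci (22.9% higher and 24.8% lower), and 12 were higher and 16 lower at midnight, beside 42.9% (22.3% higher and 20.6% lower). Against day 0, re-watered leaves had 8 higher loci and 0 lower at midday, beside 6.85% of all loci (4.09% higher and 2.75% lower), and 3 higher and 4 lower at midnight, beside 19.6% (8.28% higher and 11.3% lower). The midday count of 8 became 4 without day 0 midday replicate 1, day 0 midday replicate 3 or re-watered midday replicate 2, and 2 without re-watered midday replicate 3. Only NAC83 and NAC41 were above day 0 at both times. NAC83 had 57.5, 59.3 and 82.3 CPM at midday in re-watered leaves and 32.6, 32.3 and 28.3 CPM on day 0, with no overlap (log2 fold change 1.096 ± 0.17 (SE), edgeR adjusted p = 5.45e-04). At midnight it had 142, 132 and 135 CPM in re-watered leaves and 89.5, 68.5 and 53.5 CPM on day 0 (log2 fold change 0.95 ± 0.16 (SE), edgeR adjusted p = 3.03e-04). NAC41 had 15.98, 14.9 and 19.9 CPM at midday in re-watered leaves and 8.43, 5.66 and 7.503 CPM on day 0 (log2 fold change 1.24 ± 0.20 (SE), edgeR adjusted p = 8.11e-04). The third midday library of the re-watered plants, the highest in both loci, was the one least like its group, and without it the midday differences were 0.91 for NAC83 (edgeR adjusted p = 0.00810) and 1.096 for NAC41 (edgeR adjusted p = 0.0122). In a fit of the 2 midday groups alone no locus of either family passed.

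Not all loci that were higher in drought were lower after re-watering, and 5 that were at midnight are given here. Their re-watered libraries are set against the same day 12 libraries that were compared with day 0. At midnight in re-watered leaves AT4G27410 had 4.64, 7.31 and 4.82 CPM, against 12.3, 28.8 and 33.2 CPM on day 12 (log2 fold change -2.15 ± 0.46 (SE), edgeR adjusted p = 5.18e-04). NAC105 had 0.129, 0.2395 and 0.247 CPM, against 2.46, 4.698 and 4.605 CPM on day 12, which is 5 counts in all in the re-watered leaves (edgeR adjusted p = 1.21e-06). WRKY30 had 1.67, 2.04 and 2.97 CPM, against 8.67, 7.71 and 7.003 CPM on day 12 (log2 fold change -1.79 ± 0.40 (SE), edgeR adjusted p = 6.89e-04). In none of the 3 did the groups overlap. WRKY40 had 0.644, 0.958 and 1.11 CPM in re-watered leaves and 5.44, 5.54 and 6.24 CPM on day 12 (log2 fold change -2.64 ± 0.55 (SE), edgeR adjusted p = 3.23e-04). AT4G11070 had 6.18, 11.4 and 7.91 CPM in re-watered leaves and 21.8, 30.96 and 20.8 CPM on day 12 (log2 fold change -1.52 ± 0.22 (SE), edgeR adjusted p = 2.38e-06). In these, too, every re-watered library was below every one of day 12.

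Among loci that were lower on day 12 at midnight, NAC36 and NAC11 are examples that were higher after re-watering. NAC36 had 10.2, 12.6 and 13.97 CPM in re-watered leaves and 0.777, 3.01 and 1.53 CPM on day 12 (log2 fold change 2.77 ± 0.47 (SE), edgeR adjusted p = 3.59e-05). NAC11 had 7.34, 6.35 and 6.92 CPM in re-watered leaves and 1.42, 1.57 and 0.767 CPM on day 12 (log2 fold change 2.47 ± 0.43 (SE), edgeR adjusted p = 4.37e-05), with no overlap in either locus. The wall factors NAC73 and NAC10 were below day 0 at midnight after re-watering. NAC73 had 0.773, 1.32 and 0.989 CPM in re-watered leaves and 4.01, 2.56 and 4.73 CPM on day 0 (log2 fold change -1.86 ± 0.44 (SE), edgeR adjusted p = 0.00463). NAC10 had 0.258, 0.479 and 0.494 CPM in re-watered leaves and 3.34, 2.42 and 2.54 CPM on day 0 (log2 fold change -2.700 ± 0.48 (SE), edgeR adjusted p = 4.00e-04). At midday after re-watering none of the 6 wall loci was called lower than on day 0. There NAC73 had 1.91, 1.59 and 2.09 CPM in re-watered leaves and 3.02, 3.07 and 4.01 CPM on day 0, and NAC10 had 1.39, 1.59 and 0.985 CPM and 1.59, 1.62 and 1.74 CPM. On day 12 at midnight NAC73 had 0, 0.723 and 0.4797 CPM and NAC10 had 0, 0.1205 and 0.0959 CPM, all below the re-watered libraries. Against day 12, and not day 0, 9 of 11 secondary wall genes tested were higher and 1 lower in re-watered leaves at midnight. Over all loci 22.3% were higher and 20.6% lower. The 5 xylem and fibre markers summed to 476 to 544 CPM in re-watered leaves at midnight, beside 460 to 588 CPM on day 0.

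Genes with which these factors act in Arabidopsis were counted for days 9 and 12 at midday and then days 9 and 12 at midnight. Over all loci tested, 23.4%, 29.3%, 23.2% and 27.8% were higher and 21%, 25.7%, 25.4% and 29.8% lower in this order. Of 18 abscisic acid and drought response genes, 11 were tested, of which 10, 10, 8 and 8 were higher and 0, 0, 1 and 1 lower. The abscisic acid-induced phosphatase locus AT1G07430 was higher on day 12 at midday by 2.63 ± 0.27 (SE), edgeR adjusted p = 9.44e-09, and at midnight by 2.74 ± 0.27 (SE), edgeR adjusted p = 2.95e-09. Re-watered leaves had 9 of the 11 lower than day 12 at midday and 8 at midnight, and none higher. Over all loci 24.8% and 20.6% were lower and 22.9% and 22.3% higher. Of 13 genes of senescence and chlorophyll breakdown, 11 were tested, of which 4, 7, 3 and 4 were higher and 1, 3, 2 and 4 lower. Pheophytinase (AT5G13800), which takes part in chlorophyll breakdown, was higher on day 12 at midday by 1.73 ± 0.25 (SE), edgeR adjusted p = 2.00e-06, and differed at midnight by -4.26 ± 0.34 (SE), edgeR adjusted p = 9.68e-11. Of 17 salicylic acid and defence genes only 6 were tested, with 2, 3, 0 and 2 higher and 0, 0, 1 and 1 lower. Of 13 MAP kinases and VQ proteins, partners of WRKY factors, 5 were tested, with 1, 1, 0 and 1 higher and 0, 0, 1 and 2 lower.

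Marker lists of leaf cell types were read in the same order, beside the same shares of all loci. Of 6 guard cell markers tested, 1, 2, 1 and 1 were higher and 4, 4, 2 and 1 lower, and their sum was 104 to 119 CPM at midnight on day 12 and 43.3 to 63.5 CPM on day 0. At midday the guard cell sum lay the other way, at 31 to 42.1 CPM on day 12 and 46.4 to 57.9 CPM on day 0. Of 3 phloem and companion cell markers, 1, 1, 1 and 1 were higher and 0, 1, 1 and 0 lower, and their sum at midday was 334 to 386 CPM on day 9 and 310 to 381 CPM on day 12, above the 119 to 201 CPM of day 0. Within the re-watered midday group it ran from 150 to 924 CPM. Of 4 leaf mesophyll markers, 0, 0, 1 and 1 were higher and 3, 3, 2 and 2 lower, with sums of 77570 to 82604 CPM at midday on day 12 and 143690 to 212950 CPM on day 0. Of 2 epidermis markers tested, none passed, and 1 further marker was at 0. All 4 mesophyll markers had counts. The part of these cell types in the NAC and WRKY results was not tested.

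Because reads were assigned to the best Arabidopsis match, a locus can pool several Talinum genes of a family. The authors' deposited table of assembled contigs holds 111 contigs for 45 of the 68 loci. In the authors' deposited table the NAC83 contig Tt13734 had a mean of 119 reads scaled to library size (RPM) at midnight on day 9 and 52 on day 0, while a second NAC83 contig, Tt386, had 7.33 and 18.7 RPM. For WRKY30, contig Tt44744_2 of the authors' deposited table had 131 RPM at midnight on day 9 and 31.3 on day 0. These levels are far above the CPM of the WRKY30 locus in the same groups, and the cause was not tested. For NAC36, contig Tt4775 of the authors' deposited table had 6 RPM at midnight on day 9 and 23.7 on day 0, and 90.7 and 50.3 RPM at midday. For AT4G27410, contig Tt14654 of the authors' deposited table had 62.7 RPM at midnight on day 12 and 16.3 on day 0. The contigs did not follow the loci everywhere. In the authors' deposited table the AT4G11070 contig Tt2295 had 15.3 RPM at midnight on day 9 and 12.7 on day 0, and the AT3G15500 contig Tt6357 had 4.33 RPM at midnight on day 12 and 5.67 on day 0.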

How the data were processed

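Leaf polyA RNA was sequenced as 150 bp single-end reads, 12 libraries a lane, per the labels' protocols. Raw counts per Arabidopsis locus were made by the authors with BLAT in protein space against TAIR10, per the file headers, so that reads of several Talinum genes can fall on 1 locus. CASAVA 1.8.2 and DESeq2 are named in the submitters' processing notes. A further 30 columns of rounded RPM were not used, and 6 paired-end samples were not analysed here. The contig table holds mean RPM per group and q-values, deposited by the authors, and is quoted as theirs.

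Counts were fitted with edgeR 4.0.16 (R 4.3.3): filterByExpr, TMM scaling, robust quasi-likelihood fit of all 10 groups of 3 libraries, 17 contrasts and Benjamini-Hochberg adjustment over 14052 loci. The design has 20 residual degrees of freedom. The script was tested on simulated data. The labels call the libraries biological replicates and say nothing of pooling of plants, so p-values measure the spread between these libraries. The limits for a count of 0 cover counting error only. Members are loci annotated "NAC domain", "NAC (No Apical Meristem)" or "WRKY" with at least 100 counts. Loci were picked for naming as the 6 of each family with the highest mean and, per contrast, up to 5 called each way with a group mean of at least 5 CPM. Not all of these were printed. AT2G37260, among the 6 WRKY loci with the highest mean, was left out, and WRKY33 was given by its fold change only. Some others were named after their values were seen. The members, the role groups and the lists of other genes (abscisic acid and drought, senescence and chlorophyll breakdown, salicylic acid and defence, MAP kinases and VQ proteins, secondary wall, and markers of guard cells, phloem, xylem and fibre, epidermis and mesophyll) were chosen with earlier results of these data known. Alternatives were other scalings (RLE, upper quartile), filters on low counts, limma-trend (limma 3.58.1), DESeq2 1.42.0, a fit of only the groups compared, a replicate block, and leaving out libraries.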

Additional observations from a re-analysis of the deposited data

Results flagged for a closer look

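The response to drought differed between midnight and midday, by the test of the difference itself, in 10 loci on day 9 and 19 loci on day 12, and the values below are the day 9 or day 12 change at midnight minus that at midday on the log2 scale. A response higher at midnight on both days was found for AT1G76420 (1.84 on day 9 and 2.699 on day 12), NAC83 (AT5G13180; 1.46 and 1.71) and NAC41 (AT2G33480; 1.27 and 1.52). The day 9 value of AT1G76420 lost its call without day 0 midday replicate 2 (1.48 on the log2 scale, edgeR adjusted p = 0.0762). On day 12 WRKY40 (AT1G80840) had 6.29 and WRKY17 (AT2G24570) had 1.26, the second losing its call without day 0 midday replicate 2 or day 12 midnight replicate 1 (0.98 to 1.04 on the log2 scale, edgeR adjusted p = 0.0541 to 0.0592). The size for WRKY40 rests on few counts, 1, 2 and 4 at midday on day 12 and 5, 6 and 1 at midnight on day 0.

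A response lower at midnight on both days, kept without any 1 library, was found for NAC36 (AT2G17040; -2.51 on day 9 and -1.995 on day 12) and NAC62 (AT3G49530; -2.24 and -1.72). AT1G01720 had -1.49 on day 12. Others were less firm. NAC11 (AT1G32510) had -1.76 on day 9, lost without day 0 midday replicates 1 or 3, day 0 midnight replicates 1 or 2, day 4 midnight replicate 2, day 9 midday replicates 2 or 3, day 9 midnight replicates 1 or 3 or re-watered midnight replicate 3 (-1.18 to -1.87 on the log2 scale, edgeR adjusted p = 0.0505 to 0.258), with upper-quartile scaling (edgeR adjusted p = 0.0552) and by limma-trend (adjusted p = 0.0556), and -1.96 on day 12, lost without day 0 midday replicate 1, day 0 midnight replicate 1, day 12 midday replicates 1, 2 or 3 or day 12 midnight replicate 3 (-1.67 to -2.01 on the log2 scale, edgeR adjusted p = 0.0539 to 0.0884). NAC16 (AT1G34180) had -0.93 on day 9, lost without day 0 midday replicates 1 or 3, day 0 midnight replicates 1 or 2, day 9 midday replicates 1 or 3 or day 9 midnight replicates 1 or 3 (-0.74 to -0.92 on the log2 scale, edgeR adjusted p = 0.0555 to 0.106), with upper-quartile scaling (edgeR adjusted p = 0.0543) and in a fit of only the groups compared (edgeR adjusted p = 0.0818), and -0.99 on day 12, lost without day 0 midday replicate 1 or day 0 midnight replicate 1 (-0.77 to -0.84 on the log2 scale, edgeR adjusted p = 0.0577 to 0.0692) and in a fit of only the groups compared (edgeR adjusted p = 0.0584). AT4G26640 had -0.74 on day 9, lost without day 0 midday replicate 1 or day 0 midnight replicate 1 (-0.55 to -0.63 on the log2 scale, edgeR adjusted p = 0.0564 to 0.0769) and in a fit of only the groups compared (edgeR adjusted p = 0.0666), and -0.59 on day 12, lost without day 0 midday replicates 1 or 3, day 0 midnight replicate 1, day 12 midday replicates 2 or 3 or day 12 midnight replicates 1 or 3 (-0.38 to -0.63 on the log2 scale, edgeR adjusted p = 0.0517 to 0.194). NAC3 (AT3G29035) had -1.91 on day 12, lost without day 0 midday replicates 1 or 3, day 0 midnight replicates 1 or 2, day 12 midday replicates 1 or 2, day 12 midnight replicates 1 or 2, day 4 midday replicate 2, day 9 midday replicate 1 or re-watered midnight replicate 3 (-1.41 to -1.91 on the log2 scale, edgeR adjusted p = 0.0501 to 0.161). Its call was also lost with relative log expression or upper-quartile scaling, with no filter on low counts, with the replicate block, in a fit of only the groups compared and by limma-trend (-1.62 to -1.91, adjusted p = 0.0512 to 0.0972).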

How the results depend on the processing

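Counts of NAC and WRKY loci that changed kept within 1.5 times under other scalings, filters on low counts, limma-trend, DESeq2 and the replicate block, except day 4 at midnight, which was 0 in place of 1 with no filter on low counts. Where each fit held just the groups it compared, the counts were 0 in place of 8 for re-watered against day 0 at midday, 0 in place of 1 for day 4 at midnight and 6 in place of 10 for the day 9 response at midnight minus midday. With re-watered midday replicate 3 and day 0 midnight replicate 3 both left out, an alternative chosen after seeing the data, these became 5, 10 and 17. The cause was not tested. Leaving out 1 library in turn gave 2 to 11 for re-watered against day 0 at midday (2 without re-watered midday replicate 3; 4 without re-watered midday replicate 2 or day 0 midday replicate 1 or 3), 0 to 5 for day 4 at midnight, 10 to 21 for midnight against midday on day 4, 11 to 26 for that comparison after re-watering and 6 to 15 for the day 9 response difference. The last was 15 without day 0 midnight replicate 3. For 124 values of single loci there were 4836 alternative values. Of these 0 reversed and 165 had an adjusted p past 0.05, of which 133 left out 1 library. The 124 were picked as called and, between 2 groups, without overlap, so a reversal was unlikely from the start and its absence is not read as support. Upper-quartile scaling moved the median of all loci by -0.13 on day 12 at midday and by 0.11 in the day 12 response difference (log2).

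Samples with the same replicate number did not deviate together: of 135 pairs across groups 20 had a correlation above 0.1, with a mean of 0.00244, beside -0.00125 for other pairs. With the replicate number as a block, 21 loci changed at midday on day 9 and 34 on day 12, and the named calls lost were AT1G77450 for midnight against midday on day 4 and AT3G29035 for the day 12 response difference. At these depths a locus at 0 in a library could lie up to 0.343 to 0.703 CPM on the raw library totals, so changes of the loci near 1 CPM rest on few counts.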
